A study of Mus musculus with 15 samples.

Results

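The primary cilium is a single antenna-like projection of the cell surface, built and emptied by intraflagellar transport and closed off from the rest of the cell by a transition zone at its base. Kinesin-2 motors carry trains of the IFT-B and IFT-A complexes toward the tip, cytoplasmic dynein 2 returns them, and the BBSome loads membrane cargo for export. In vertebrates the Hedgehog pathway runs through this organelle, and in the cerebellum granule neuron progenitors need it to divide in response to Sonic hedgehog (Shh). The genes described here were 47 genes of that machinery, of 17097 genes measured. They were chosen by symbol alone: genes whose names begin with Ift, Bbs, Tctn, Nphp or Dync2 and a further set of named ciliary motor, transition zone, Hedgehog-linked and transcription factor genes, each with a probe set assigned to that gene only. Together they had 78 probe sets of 28898. By role they were 11 IFT-B genes, 5 IFT-A genes, 6 motor genes, 8 genes of the BBSome and its chaperonin-like assembly factors, 9 transition zone and basal body genes, 6 genes of ciliary proteins linked to Hedgehog signalling and 2 transcription factor genes. Arl13b and Rpgrip1l, which the same choice names, were not analysed here.

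RNA of 15 mouse samples was measured on 15 Affymetrix arrays, 3 for each of 5 groups, in a study that modelled the Myc-driven subgroup of medulloblastoma, a tumour of the cerebellum. Myc secondary tumours grew from cultured spheres of primary Myc tumours after these were transplanted orthotopically. Myc primary tumours arose in the cerebral cortex of immunocompromised nude mice that received Cdkn2c-/-, Trp53-/-, Atoh1-GFP cerebellar cells infected with Myc, so host tissue could be present and the site was not the cerebellum. Shh tumours were spontaneous medulloblastomas of Cdkn2c-/-; Trp53Fl/Fl; Nestin-Cre mice, in which Nestin-Cre acts in neural progenitors at large and not in one cerebellar lineage. GFP-positive and GFP-negative cells were sorted by the Atoh1-GFP reporter, which marks granule neuron progenitors, from Cdkn2c-/-, Trp53-/- cerebella at postnatal day 6. The sample labels call these sorted cells spontaneous tumour, against the design description, which was followed here. All 5 groups therefore lacked Cdkn2c and carried Trp53 deletions, and none was wild type. Tumour cells had been dissociated and passed through a Percoll gradient before RNA extraction. Ages of the tumour-bearing mice are not given in the sources used here, nor is it said whether replicates came from separate mice, so p-values measure only the spread between these arrays.

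Cdkn2c lay between 4.0 and 4.12 log2 units in Myc secondary tumours, between 3.59 and 3.70 in Myc primary tumours, between 3.39 and 3.46 in Shh tumours, between 3.48 and 3.54 in GFP-positive cells and between 3.31 and 3.62 in GFP-negative cells. All 15 values were under the background level of 4.77 log2 units, set at percentile 95 of the 23 control probe sets for nonspecific signal. Atoh1 averaged 8.92 ± 0.39 in GFP-positive cells and 4.09 ± 0.42 in GFP-negative cells (SD, n = 3 each), which follows the sort. Myc itself measured 10.1, 9.12 and 8.88 in Myc secondary tumours, 8.41, 5.21 and 9.0 in Myc primary tumours, 8.19, 9.13 and 8.15 in Shh tumours, 7.37, 7.39 and 6.68 in GFP-positive cells and 8.7, 8.55 and 8.56 in GFP-negative cells. The Myc primary mean of 7.54 was thus below the Shh mean of 8.49 and the GFP-negative mean of 8.6, and the array labelled Myc primary 2 was the lowest of all 15, which goes against its label if this probe set reads the introduced Myc. Whether it does is not given in the sources used here. Without that array 4 of the 47 genes were called in Myc primary against Shh tumours (6 with it) and 13 in Myc primary tumours against GFP-positive cells (12 with it). Markers of other cells differed widely between the sorted groups: 7 of 7 microglial, 7 of 7 endothelial, 9 of 10 oligodendrocyte, 7 of 8 astroglial and 4 of 7 fibroblast markers were lower in GFP-positive cells. Their summed level there was 6.8 to 7.31, 7.09 to 7.51, 7.72 to 7.79, 8.63 to 9.02 and 6.54 to 6.67 log2 units, against 12.85 to 14.08, 10.64 to 11.71, 13.01 to 13.97, 12.86 to 13.97 and 11.17 to 12.4 in GFP-negative cells. Against GFP-positive cells, microglial markers were higher for 3 of 7 in Myc primary tumours (summed 9.2 to 9.88) and 3 of 7 in Shh tumours (9.42 to 9.82), fibroblast markers for 3 of 7 and 0 of 7, endothelial markers for 2 of 7 and 1 of 7, oligodendrocyte markers for 3 of 10 and 1 of 10, and astroglial markers for 2 of 8 and 1 of 8. Granule progenitor markers were lower for 7 of 7 in Myc primary and 1 of 7 in Shh tumours. Markers of GABAergic and Purkinje neurons were lower for 4 of 6 in each (summed 6.13 to 6.28 in Myc primary and 6.11 to 6.25 in Shh tumours, against 9.67 to 10.26 in GFP-positive cells). The part of these markers in any difference from or between the sorted groups was not tested. Of all genes, 13.8% were lower in GFP-positive than in GFP-negative cells. Against GFP-positive cells 14.5% of all genes were higher and 10.3% lower in Myc primary tumours, and 4.63% and 2.92% in Shh tumours. All 7 measured granule progenitor markers were lower in the Myc secondary and in the Myc primary tumours than in Shh tumours. Earlier work on these data named 3 arrays that stand apart from their groups, namely replicate 3 of Myc primary, replicate 3 of GFP-negative and replicate 1 of Myc secondary, and each count below was also made without them. On Myc primary 3 the summed oligodendrocyte markers reached 12.91 log2 units, against at most 8.96 in Shh tumours, and the summed fibroblast markers 11.68, against at most 7.56. Sample titles fall into an earlier and a later run of numbers. All Myc primary and Shh arrays are in the earlier run with 2 GFP-negative arrays. All GFP-positive and Myc secondary arrays are in the later one, joined by GFP-negative 3. Nothing in the labels calls these runs batches, and a term for them rests on GFP-negative 3 alone.

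Of the 47 genes, 41 had a promoter sequence in RefSeq (GRCm38.p6; 250 bases before to 50 after the start). Genes of cilia often hold an X-box, the site of RFX transcription factors. The letters GTNNCCNNNGNAAC on either strand, a strict form of that site, were found in 10 of the 41, or 24.4%, against 2.49% of 27025 genes with a promoter of the same length. These were Bbs1, Bbs4, Bbs7, Ift22, Ift57, Mks1, Nphp4, Tctn1, Tctn2 and Tmem216. The stretches around the match are shown for 4 of these, picked after their values were seen as examples of genes called in at least 1 comparison. Each is printed along the gene's own strand, and capitals mark the match, which for Ift57 and the first of Ift22 lies on the opposite strand.
Tctn1, chr5:122264411-122264440, minus strand: gcgctaggctgtgactGTTGCCCGGGCAAC
Bbs4, chr9:59353464-59353493, minus strand: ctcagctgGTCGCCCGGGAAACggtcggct
Ift57, chr16:49699199-49699228, plus strand: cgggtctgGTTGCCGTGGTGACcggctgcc
Ift22, chr5:136908079-136908138, plus strand: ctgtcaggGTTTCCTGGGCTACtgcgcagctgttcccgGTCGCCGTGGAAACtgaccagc
Ift22 held 2 matches. Of the 10 genes with the match, 6 changed in at least 1 of the 6 comparisons described below, and of the 31 without it, 23 did, where 48.5% of all genes and 67.5% of genes with a group mean above background did. The E-box letters CACGTG, which Myc binds, were in 3 of the 41 promoters (7.32%), namely those of Arl3, Bbs7 and Wdr19, against 8.09% of all promoters. A match is a description of these letters and not of a bound factor.

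On the array, 40 of the 47 genes had group means above background in all 5 groups. Foxj1, Tctn2, Tmem67 and Bbs10 had none above it, Tctn1 and Cep290 had 1 group mean below it and Kif17 had 2. The range of the 5 group means was between 0.31 (Ift46) and 2.50 log2 units (Evc2), with a median of 0.95. Shh tumours had the highest group mean for 18 genes, Myc primary tumours for 11, GFP-positive cells for 9, Myc secondary tumours for 6 and GFP-negative cells for 3. The lowest group mean was in GFP-negative cells for 22 genes, in Myc secondary tumours for 12, in GFP-positive cells for 9, and in Myc primary and Shh tumours for 2 each. In limma's moderated F test, 28 of the 47 (59.6%) differed among the 5 groups at an adjusted p below 0.05, against 47.8% of all 17097 genes and 67.9% of the 11269 genes with a group mean above background. The share was thus above that of all genes and below that of expressed genes, a set that leaves out 4 of the 47. Since these are bulk samples, fewer cells of a type and less RNA per cell cannot be told apart.

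**Figure D1:**
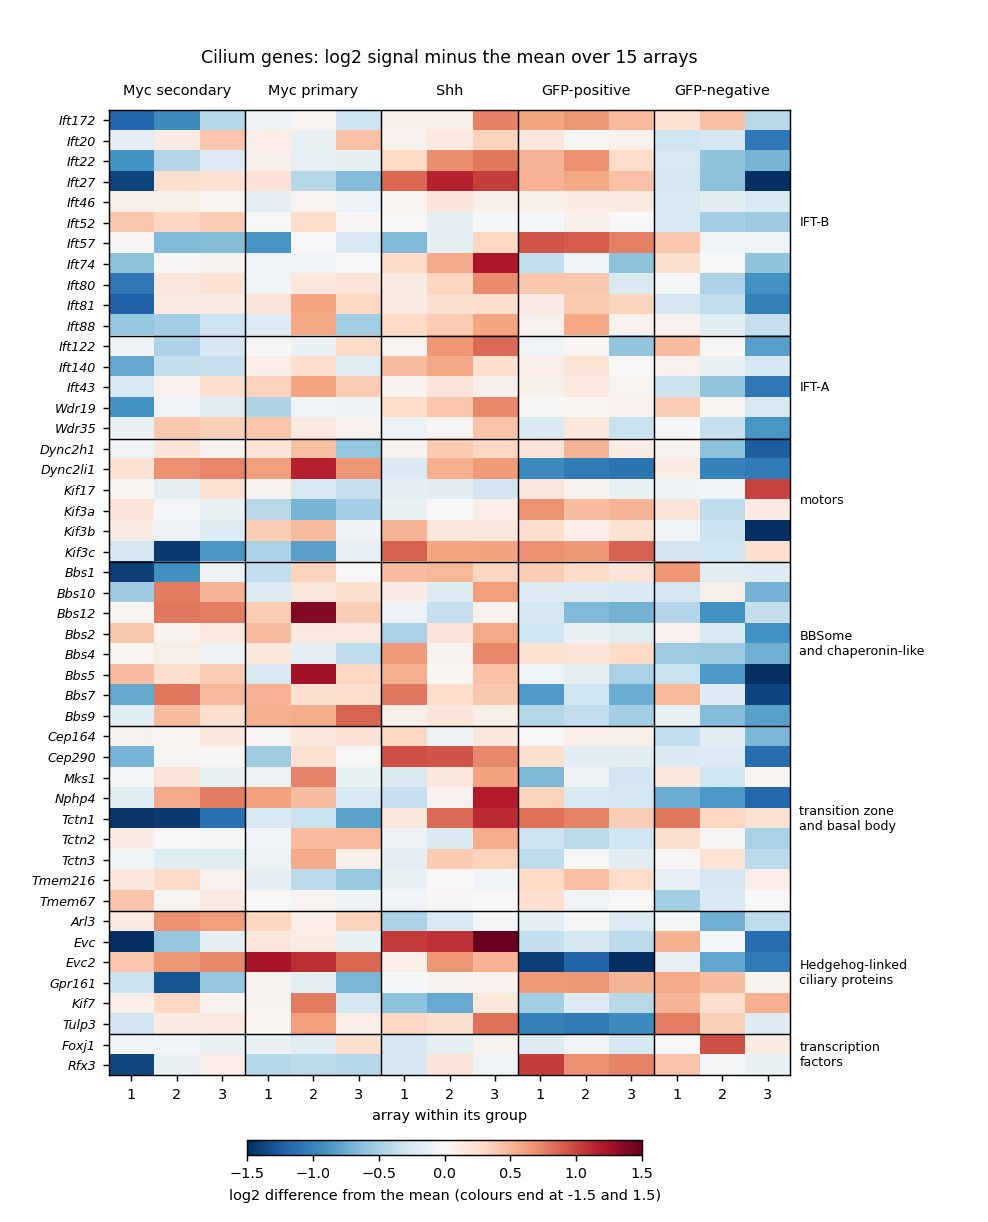
Log2 signal of each of the 47 genes on each of the 15 arrays, minus the gene's mean over all arrays, with genes ordered by role and arrays by group. Tctn1, Kif3c and Evc show low Myc secondary columns beside higher Shh columns, and Evc2, Tulp3 and Dync2li1 show low GFP-positive columns.

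The 6 comparisons were read from one limma fit, with a gene called at a Benjamini-Hochberg adjusted p below 0.05 over all genes. In Myc secondary against Shh tumours 14 genes were called (22.8% of all genes were), 2 higher and 12 lower. The 12 lower genes are 25.5% of the 47, against 12.3% of all genes, and the 2 higher genes are 4.26%, against 10.5%. In Myc primary against Shh tumours 6 genes were called (15.8% of all genes), and all 6 were lower, which is 12.8% against 7.33% of all genes, while 8.46% of all genes were higher. None was called in Myc secondary against Myc primary tumours by limma (0.719% of all genes), where 11 had an unadjusted p below 0.05. In Myc primary tumours against GFP-positive cells 12 genes were called (24.8% of all genes), 5 higher and 7 lower, which are 10.6% and 14.9% of the 47 against 14.5% and 10.3% of all genes. In Shh tumours against GFP-positive cells 6 were called (7.56% of all genes), 5 higher and 1 lower, which are 10.6% and 2.13% of the 47 against 4.63% and 2.92% of all genes. In GFP-positive against GFP-negative cells 14 were called (26.3% of all genes), 11 higher and 3 lower, which are 23.4% and 6.38% of the 47 against 12.6% and 13.8% of all genes. Among the 11269 genes with a group mean above background the called shares were higher, at 32.5%, 23%, 1.06%, 36.1%, 11% and 37.1% in the same order. The 47 genes, at 29.8%, 12.8%, 0%, 25.5%, 12.8% and 29.8%, were below these shares except in Shh tumours against GFP-positive cells. These are not like sets, since the 47 include 4 genes under background in all 5 groups, none of them called. Those 4 lower the shares of the 47, so the order against expressed genes is not settled by these shares. Comparisons that share a group share its arrays. The arrays of the groups compared did not overlap for 21, 18, 13, 25, 21 and 23 of the 47 genes in the same order. Among all genes this held for 42.4%, 36.5%, 17.7%, 46.2%, 39.6% and 42.8%. Lack of overlap at 3 arrays a group was thus common among all genes.

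Directions of the whole list depended on how arrays were scaled. The median difference of the 47 genes was -0.20 log2 units in Myc secondary against Shh tumours, -0.15 in Myc primary against Shh tumours, -0.17 between the Myc groups, 0.07 in Myc primary tumours and 0.18 in Shh tumours against GFP-positive cells, and 0.28 in GFP-positive against GFP-negative cells. With each array centred on its median gene these became 0.13, -0.15, 0.16, -0.23, -0.11 and 0.78. That centring moved the median of all genes by nearly the same amounts, to 0.40, 0.07, 0.30, -0.24, -0.30 and 0.54. Relative to the median of all genes the list differed by -0.27, -0.22, -0.14, 0.01, 0.19 and 0.24, which centring leaves nearly as it is by construction. The median of the genes above background, as deposited, was -0.02, 0.04, -0.09, 0.13, 0.09 and 0.13 in the same order. The split of calls moved with it: centred arrays gave 4 higher and 8 lower genes in Myc secondary against Shh tumours, 4 higher and 3 lower in Shh tumours against GFP-positive cells, and 31 higher and 1 lower in GFP-positive against GFP-negative cells. Cyclic loess gave 2 higher and 8 lower in Myc primary against Shh tumours and 5 higher and 3 lower in GFP-positive against GFP-negative cells.

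Over the 6 comparisons there were 52 calls in 30 genes, and 17 genes had none. The 30 genes are 63.8% of the 47, against 48.5% of all genes and 67.5% of genes above background. The last share is not over a like set, since 4 of the 47 were under background in all groups and had no call. Each call was recomputed under 24 alternatives, 15 of which left out 1 array. The calls that held in all 24 were those of Kif3c and Tctn1 in both Myc groups against Shh tumours, of Evc2 and Kif3a in Myc primary tumours against GFP-positive cells, and of Bbs4, Ift22 and Ift43 in GFP-positive against GFP-negative cells. A further 17 were ended only by the term for the run of title numbers, and 24 were ended by leaving out at least 1 array. The run term ended 35 calls. These were 12 of 14 in Myc secondary against Shh tumours, 10 of 12 in Myc primary tumours against GFP-positive cells, 6 of 6 in Shh tumours against GFP-positive cells, 7 of 14 in GFP-positive against GFP-negative cells and none of the 6 in Myc primary against Shh tumours, which lie in 1 run.

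**Figure D2:**
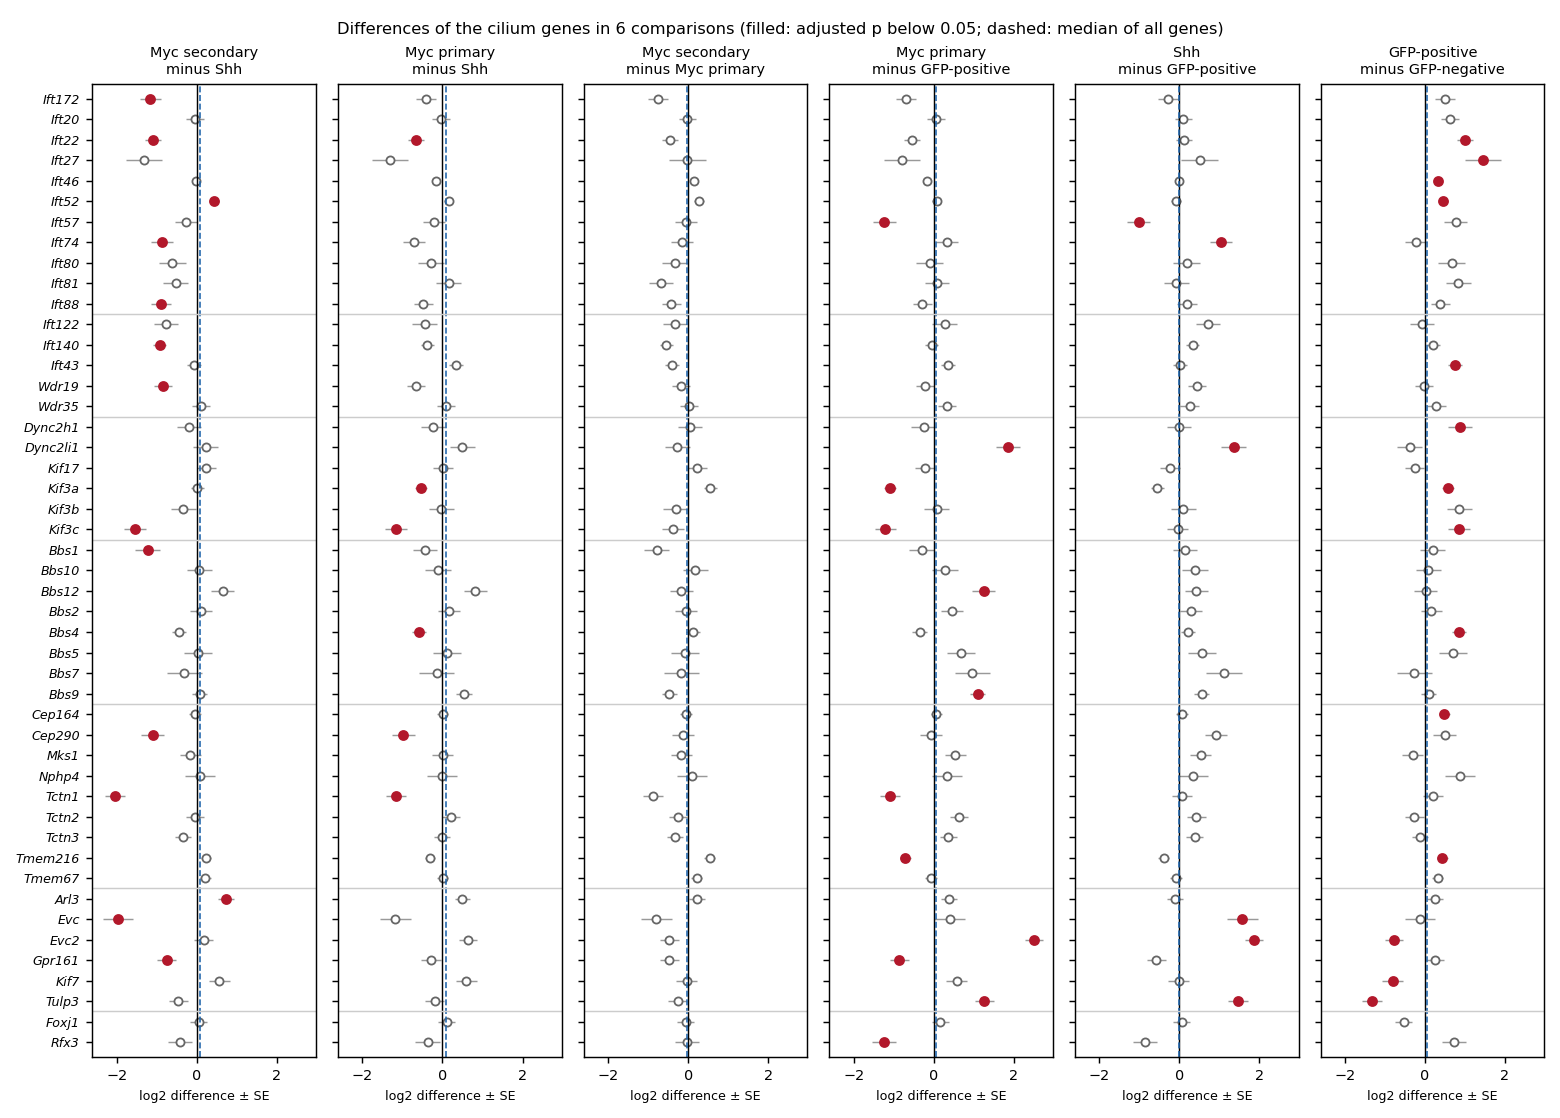
Log2 difference ± SE of each of the 47 genes in the 6 comparisons, with called genes filled and the median of all genes dashed. The called genes lie mostly left of 0 in both Myc tumour groups against Shh tumours (12 of 14 and 6 of 6), and mostly right of 0 in GFP-positive against GFP-negative cells (11 of 14).

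IFT-B, whose proteins form the train that kinesin-2 moves toward the tip, had 4 genes lower and 1 higher of 11 in Myc secondary against Shh tumours, 1 lower in Myc primary against Shh tumours and 4 higher in GFP-positive against GFP-negative cells. These are 45.5%, 9.09% and 36.4% of the 11, against 22.8%, 15.8% and 26.3% of all genes called. Among genes above background the called shares were 32.5%, 23% and 37.1%. Ift172, one of the largest IFT-B proteins, measured 6.02, 6.27 and 6.78 log2 units in Myc secondary tumours, 7.14, 7.26 and 6.90 in Myc primary tumours and 7.29, 7.29 and 7.97 in Shh tumours. In the sorted cells it measured 7.81, 7.87 and 7.70 when GFP-positive and 7.43, 7.67 and 6.80 when GFP-negative. Every Myc secondary array lay below every Shh array, and the difference of -1.16 ± 0.25 (SE) passed the test (adjusted p = 0.0055) but not with the run term (-0.41, adjusted p = 0.53).

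Ift22, a small GTPase-like IFT-B protein whose promoter stretch with 2 X-box matches is shown above, measured 7.51, 7.97 and 8.21 in Myc secondary tumours, 8.48, 8.28 and 8.27 in Myc primary tumours and 8.70, 9.10 and 9.20 in Shh tumours. It measured 8.92, 9.09 and 8.68 in GFP-positive cells and 8.16, 7.80 and 7.71 in GFP-negative cells. Neither Myc group overlapped the Shh tumours, and the sorted groups did not overlap. Ift22 was lower by 1.10 ± 0.20 in Myc secondary tumours than in Shh tumours (2.15-fold; adjusted p = 0.0017), although with the run term this was 0.83 lower at an adjusted p of 0.14. Against the same Shh tumours, the Myc primary tumours differed by -0.65 ± 0.20 (adjusted p = 0.043), a call that ended without any 1 of 10 arrays, the adjusted p reaching 0.14 without Shh 3. GFP-positive cells were higher by 1.0 ± 0.20 than GFP-negative cells (adjusted p = 0.0024).

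Ift88, the IFT-B gene whose mutation in mice shortens or removes cilia, measured 5.53, 5.59 and 5.80 in Myc secondary tumours, 5.92, 6.69 and 5.59 in Myc primary tumours and 6.41, 6.5 and 6.71 in Shh tumours. The sorted cells gave 6.18, 6.69 and 6.18 when GFP-positive and 6.18, 5.96 and 5.77 when GFP-negative. Only the Myc secondary and Shh arrays were called apart, at -0.90 ± 0.24 (adjusted p = 0.018). Without Shh 3 this was -0.81 (adjusted p = 0.062) and without Myc secondary 2 it was -0.87 (adjusted p = 0.055). Centred on the median gene the difference was -0.57 (adjusted p = 0.11).

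Ift74, which binds tubulin together with Ift81, measured 8.01, 8.65 and 8.68 in Myc secondary tumours, 8.58, 8.58 and 8.63 in Myc primary tumours, 8.92, 9.20 and 9.84 in Shh tumours, 8.26, 8.56 and 8.01 in GFP-positive cells and 8.87, 8.63 and 8.02 in GFP-negative cells. Shh tumours lay above both Myc groups and above GFP-positive cells with no overlap. The difference was -0.87 ± 0.27 in Myc secondary against Shh tumours (adjusted p = 0.037) and 1.04 ± 0.27 in Shh tumours against GFP-positive cells (adjusted p = 0.036). Each call ended without any 1 of 5 arrays. Without Shh 3 they were -0.61 (adjusted p = 0.15) and 0.78 (adjusted p = 0.13), without Myc secondary 1 the first was -0.65 (adjusted p = 0.13), and without GFP-positive 3 the second was 0.91 (adjusted p = 0.15). With the run term they were -0.14 (adjusted p = 0.88) and 0.31 (adjusted p = 0.74).

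Ift57, which links IFT-B to kinesin-2, was high in GFP-positive cells. It measured 8.6, 7.91 and 7.92 in Myc secondary tumours, 7.69, 8.56 and 8.34 in Myc primary tumours, 7.91, 8.44 and 8.88 in Shh tumours, 9.50, 9.48 and 9.32 in GFP-positive cells and 8.97, 8.51 and 8.51 in GFP-negative cells. No array of another group reached the GFP-positive values. The difference from GFP-positive cells was -1.23 ± 0.28 in Myc primary tumours (adjusted p = 0.006; -0.64 and adjusted p = 0.017 over the mean of its probe sets) and -1.02 ± 0.28 in Shh tumours (adjusted p = 0.045). The Shh call ended without any 1 of 9 arrays, the largest adjusted p being 0.17 without Shh 1, where the difference was -0.77.

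Ift27, a GTPase that also serves BBSome export, measured 5.68, 7.30 and 7.29 in Myc secondary tumours, 7.28, 6.64 and 6.41 in Myc primary tumours, 7.92, 8.22 and 8.10 in Shh tumours, 7.59, 7.64 and 7.50 in GFP-positive cells and 6.80, 6.45 and 5.14 in GFP-negative cells. Both Myc groups lay below the Shh tumours without overlap, at -1.32 ± 0.45 (adjusted p = 0.053) in Myc secondary and -1.31 ± 0.45 (adjusted p = 0.07) in Myc primary tumours, neither a call. A second Ift27 probe set was called in both, at -0.70 (adjusted p = 0.041) and -0.87 (adjusted p = 0.02). GFP-positive cells were higher by 1.45 ± 0.45 than GFP-negative cells (adjusted p = 0.032), and by 0.95 (adjusted p = 0.12) without GFP-negative 3. That call ended as well without any 1 of the GFP-positive arrays (adjusted p between 0.071 and 0.086).

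Of the remaining IFT-B genes, Ift52 was higher by 0.43 in Myc secondary than in Shh tumours (adjusted p = 0.019; 0.38 and adjusted p = 0.076 without Shh 2) and by 0.46 in GFP-positive than in GFP-negative cells (adjusted p = 0.01; 0.24 and adjusted p = 0.18 after cyclic loess). Ift46 differed by 0.31 between the sorted groups (adjusted p = 0.025), and by 0.06 (adjusted p = 0.76) after cyclic loess. The Ift46 call also ended without any 1 of 4 arrays (adjusted p up to 0.084). Ift20, Ift80 and Ift81 were called in no comparison on the probe sets used, though a second Ift80 probe set was lower in Myc secondary than in Shh tumours (-1.1, adjusted p = 0.041).

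IFT-A, the complex for return transport and for entry of membrane receptors, had 2 of 5 genes lower in Myc secondary than in Shh tumours. That is 40% of the 5, against 22.8% of all genes called in either direction and 32.5% of genes above background. Ift140 measured 7.42 ± 0.24 in Myc secondary tumours and 8.35 ± 0.17 in Shh tumours (SD, n = 3 each), which is lower by 0.93 (adjusted p = 0.0012), or by 0.68 once the run term is fitted (adjusted p = 0.12). Wdr19 measured 4.95 ± 0.47 in Myc secondary tumours, with 1 of 3 arrays under background, and 5.80 ± 0.23 in Shh tumours (adjusted p = 0.017; 0.067 without Shh 3 and 0.052 without Myc secondary 1). Ift43 was higher in GFP-positive cells, at 9.11 ± 0.06, than in GFP-negative cells, at 8.36 ± 0.38, and that difference of 0.75 ± 0.18 (adjusted p = 0.0067) lay between 0.50 and 1.25 over the alternatives. Ift122 and Wdr35 were not called.

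Among the motors, Kif3a with Kif3b or Kif3c forms heterodimeric kinesin-2. Kif3c measured 7.27, 6.09 and 6.66 in Myc secondary tumours, 7.05, 6.72 and 7.41 in Myc primary tumours and 8.42, 8.12 and 8.13 in Shh tumours. It measured 8.22, 8.18 and 8.42 in GFP-positive cells and 7.26, 7.23 and 7.78 in GFP-negative cells. All 6 Myc arrays lay below all 6 Shh and GFP-positive arrays, while the Shh and GFP-positive arrays overlapped. The difference from Shh tumours was -1.55 ± 0.27 in Myc secondary tumours (2.92-fold lower; adjusted p = 0.0012) and -1.17 ± 0.27 in Myc primary tumours (2.24-fold lower; adjusted p = 0.01), between -2.08 and -1.22 and between -1.34 and -0.99 over the alternatives. Against GFP-positive cells the Myc primary tumours were lower by 1.21 (adjusted p = 0.0049; 0.33 with the run term). The sorted groups differed by 0.85 ± 0.27 (adjusted p = 0.032), a call that ended without any 1 of 5 arrays (adjusted p up to 0.11, without GFP-negative 2). Kif3c is also known from neurons, and all 7 granule progenitor markers were lower in the Myc groups than in Shh tumours beside it. Of 7 granule neuron markers, 4 were lower in Myc secondary and 5 in Myc primary tumours than in Shh tumours. In GFP-positive against GFP-negative cells 4 of these 7 were higher. Of all genes 12.3%, 7.33% and 12.6% were called in those directions. Their part in this result was not tested.

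Kif3a measured 9.28, 9.06 and 8.98 in Myc secondary tumours, 8.68, 8.39 and 8.58 in Myc primary tumours, 8.99, 9.10 and 9.19 in Shh tumours, 9.77, 9.56 and 9.60 in GFP-positive cells and 9.27, 8.71 and 9.21 in GFP-negative cells. On the probe set used, GFP-positive values were above all others, and Myc primary values were below all others. Kif3a was lower by 1.09 ± 0.16 in Myc primary tumours than in GFP-positive cells (2.13-fold; adjusted p = 0.00025), and by 0.44 (adjusted p = 0.043) over the mean of its 4 probe sets. Against Shh tumours the difference of -0.54 ± 0.16 (adjusted p = 0.032) ended as a call without any 1 of 5 arrays, at most 0.11 without Myc primary 2. GFP-positive exceeded GFP-negative cells by 0.58 (adjusted p = 0.014), but by 0.16 (adjusted p = 0.5) over the mean of probe sets. Leaving out GFP-negative 2 or GFP-positive 1 also ended that Kif3a call (adjusted p = 0.056 and 0.063). The order of groups differed between its probe sets. One other probe set was highest in Shh tumours, at 7.96 against 7.74 in GFP-positive cells, and so was another, at 8.95 against 8.59. The last kept GFP-positive cells highest, at 7.26, and Myc primary tumours lowest, at 7.04.

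Dync2li1, the light intermediate chain of the return motor dynein 2, measured 8.31, 8.78 and 8.82 in Myc secondary tumours, 8.72, 9.26 and 8.75 in Myc primary tumours, 7.87, 8.64 and 8.73 in Shh tumours, 7.13, 7.03 and 7.0 in GFP-positive cells and 8.20, 7.08 and 7.04 in GFP-negative cells. All 9 tumour arrays exceeded all 3 GFP-positive arrays, while the sorted groups overlapped. Against GFP-positive cells it was higher by 1.85 ± 0.31 in Myc primary tumours (3.61-fold; adjusted p = 0.0008) and by 1.36 ± 0.31 in Shh tumours (adjusted p = 0.017). With the run term these were 1.25 (adjusted p = 0.13) and 0.76 (adjusted p = 0.46), and the Shh call also ended without any 1 of 5 arrays, with an adjusted p of up to 0.072. The heavy chain gene Dync2h1 did not follow it, at 7.39 ± 0.53 in Myc primary tumours, 7.63 ± 0.18 in Shh tumours and 7.64 ± 0.21 in GFP-positive cells, and was called between the sorted groups only, at an adjusted p that rounds to the threshold. That Dync2h1 call ended without any 1 of 12 arrays (adjusted p up to 0.18). Kif3b and Kif17 were not called on the probe sets used, though another Kif3b probe set was, as given below.

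**Figure D3:**
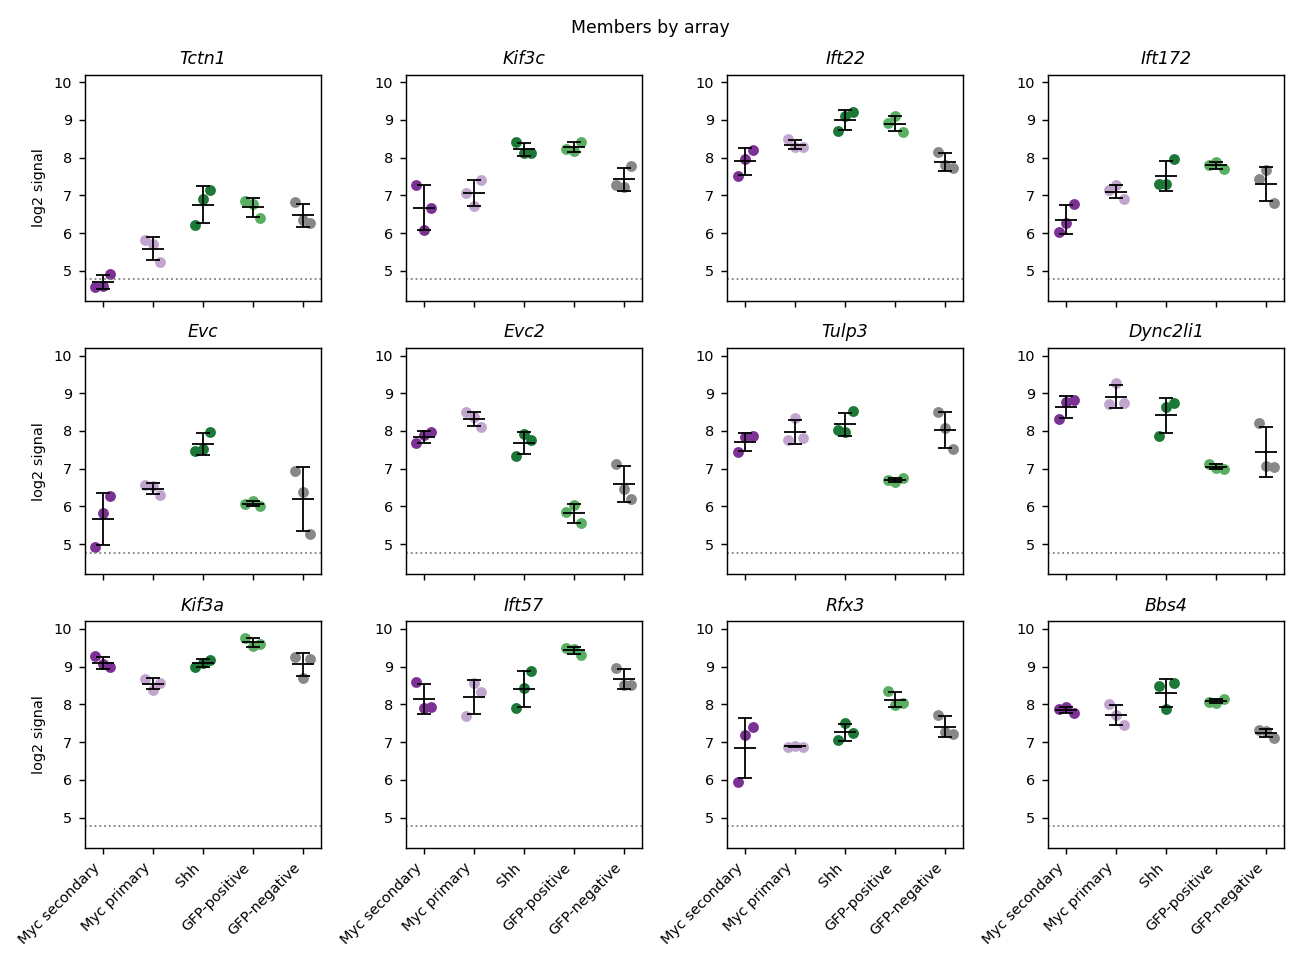
Log2 signal of 12 genes on each array, 3 points a group, with the group mean and SD in black and the background level of 4.77 dotted. Tctn1, Kif3c, Ift22 and Evc have the Shh points above both Myc groups, and Evc2, Tulp3 and Dync2li1 have the GFP-positive points below all tumour points.

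Among genes of the BBSome, a coat that carries membrane proteins out of the cilium, and of its chaperonin-like factors, none of 8 was called in Shh tumours against GFP-positive cells and 2 rose in Myc primary tumours against GFP-positive cells. In these comparisons 7.56% and 24.8% of all genes were called in either direction, and the 2 genes are 25% of the 8. Bbs12, a chaperonin-like factor, measured 5.75, 6.5 and 6.48 in Myc secondary tumours, 6.09, 7.09 and 6.08 in Myc primary tumours, 5.63, 5.37 and 5.78 in Shh tumours, 5.45, 5.05 and 5.01 in GFP-positive cells and 5.27, 4.81 and 5.36 in GFP-negative cells. Bbs9, a structural subunit, measured 5.20, 5.84 and 5.61 in Myc secondary tumours, 5.90, 5.92 and 6.24 in Myc primary tumours, 5.45, 5.55 and 5.45 in Shh tumours, 4.94, 4.99 and 4.85 in GFP-positive cells and 5.25, 4.71 and 4.55 in GFP-negative cells. For both genes every Myc primary array exceeded every Shh and every sorted-cell array. In Myc primary tumours against GFP-positive cells Bbs12 was higher by 1.25 ± 0.29 (adjusted p = 0.0062) and Bbs9 by 1.09 ± 0.19 (adjusted p = 0.0011). The run term gave 1.57 (adjusted p = 0.061) and 0.66 (adjusted p = 0.17).

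Bbs1 measured 4.43, 4.92 and 5.76 in Myc secondary tumours, 5.47, 6.17 and 5.83 in Myc primary tumours, 6.30, 6.34 and 6.16 in Shh tumours, 6.22, 6.12 and 6.03 in GFP-positive cells and 6.49, 5.68 and 5.64 in GFP-negative cells. The Myc secondary arrays, 1 of them under background, lay below all Shh arrays at -1.23 ± 0.31 (adjusted p = 0.012; -0.78 and adjusted p = 0.39 with the run term). Bbs4 measured 8.08 ± 0.06 in GFP-positive cells and 7.23 ± 0.11 in GFP-negative cells (SD, n = 3 each), and the difference of 0.85 ± 0.18 (adjusted p = 0.0031) was between 0.64 and 1.35 over the alternatives. Bbs4 was also called lower in Myc primary than in Shh tumours (-0.58, adjusted p = 0.041), where the arrays overlapped and leaving out any 1 of 10 arrays ended the call, with an adjusted p of up to 0.15. Bbs2, Bbs5, Bbs7 and Bbs10 were called in none of the 6 comparisons.

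At the transition zone, Tctn1 (Tectonic 1, a subunit of the complex that gates membrane proteins) was low in Myc secondary tumours. It measured 4.58, 4.60 and 4.91 in Myc secondary tumours, 5.81, 5.70 and 5.23 in Myc primary tumours and 6.20, 6.89 and 7.15 in Shh tumours. It measured 6.85, 6.78 and 6.40 in GFP-positive cells and 6.82, 6.34 and 6.26 in GFP-negative cells. Only 1 of 3 Myc secondary arrays was above background, the Myc primary arrays were between these and the Shh arrays, and neither Myc group overlapped Shh tumours or sorted cells. The Myc secondary mean of 4.7 was under background, so its difference from the Shh mean of 6.74 is a bound: with those arrays counted at no less than background, Tctn1 was at least 3.8-fold lower (adjusted p = 9.8e-05 on the measured values, which differed by -2.04 ± 0.25). In Myc primary tumours it differed from Shh tumours by -1.17 ± 0.25 (2.24-fold lower; adjusted p = 0.0071). Over the alternatives the measured differences were between -2.32 and -1.72 and between -1.44 and -0.96, and all were called. Between the Myc groups the arrays did not overlap either, with a difference of -0.88 ± 0.25 that missed the threshold (adjusted p = 0.15) and has its lower side under background. Against GFP-positive cells the Myc primary tumours differed by -1.1 (adjusted p = 0.006; 0.051 with the run term), while Shh tumours differed by 0.07 ± 0.25 (adjusted p = 0.93). The X-box letters of this gene, shown above, begin and end after the annotated start.

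Cep290, a centrosomal protein that tethers the membrane at the transition zone, measured 4.48, 5.19 and 5.19 in Myc secondary tumours, 4.64, 5.40 and 5.17 in Myc primary tumours, 6.14, 6.12 and 5.90 in Shh tumours, 5.41, 5.0 and 5.02 in GFP-positive cells and 4.96, 4.97 and 4.03 in GFP-negative cells. Shh tumours were above every array of the other 4 groups, and 1 of 3 arrays in each Myc group was under background. It was lower than in Shh tumours by 1.10 ± 0.28 in Myc secondary tumours (adjusted p = 0.013; -0.17 and adjusted p = 0.83 with the run term) and by 0.98 ± 0.28 in Myc primary tumours (adjusted p = 0.032). The Myc primary call ended without any 1 of 5 arrays, the value being -0.77 (adjusted p = 0.12) without Myc primary 1. Tmem216 and Cep164 were higher in GFP-positive than in GFP-negative cells by 0.43 (adjusted p = 0.027) and 0.48 (adjusted p = 0.024), and neither was called after cyclic loess (adjusted p = 0.45 and 0.12). The Tmem216 call also ended without any 1 of 5 arrays (adjusted p up to 0.11), and the Cep164 call without any 1 of 4 (up to 0.074). Tctn2, Tctn3, Tmem67, Mks1 and Nphp4 were called in no comparison.

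Evc and Evc2, which are neighbouring genes on chromosome 5 with none between them in GRCm38.p6, encode partner proteins of the Evc zone at the cilium base that pass the signal on from Smoothened. Evc measured 4.92, 5.83 and 6.27 in Myc secondary tumours, 6.58, 6.53 and 6.31 in Myc primary tumours, 7.46, 7.51 and 7.98 in Shh tumours, 6.06, 6.15 and 6.02 in GFP-positive cells and 6.95, 6.38 and 5.27 in GFP-negative cells. Evc2 measured 7.67, 7.90 and 7.98 in Myc secondary tumours, 8.49, 8.36 and 8.11 in Myc primary tumours, 7.35, 7.92 and 7.77 in Shh tumours, 5.85, 6.05 and 5.55 in GFP-positive cells and 7.13, 6.47 and 6.21 in GFP-negative cells. Evc was highest in Shh tumours, with no array of another group reaching them, whereas Evc2 was higher in every tumour array than in every sorted-cell array. In Myc secondary against Shh tumours Evc was lower by 1.97 ± 0.38 (3.93-fold; adjusted p = 0.0026), and Evc2 differed by 0.17 ± 0.23 (adjusted p = 0.65). The Evc value was -0.85 (adjusted p = 0.007) over the mean of its probe sets and -0.57 (adjusted p = 0.51) with the run term. In Myc primary against Shh tumours neither was called, at -1.18 ± 0.38 (adjusted p = 0.056) for Evc and 0.64 ± 0.23 (adjusted p = 0.081) for Evc2. Whether the genes of the pair differ from each other in these comparisons was not tested.

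Against GFP-positive cells, Evc2 rose by 2.50 ± 0.23 in Myc primary tumours (5.65-fold; adjusted p = 1e-05) and by 1.86 ± 0.23 in Shh tumours (3.63-fold; adjusted p = 0.00043). The Myc primary value was between 1.92 and 2.61 over the alternatives, and the Shh value was 1.28 (adjusted p = 0.077) with the run term. Evc rose by 1.57 ± 0.38 in Shh tumours (adjusted p = 0.026), a call that ended without any 1 of 6 arrays (adjusted p up to 0.094, without Shh 3), and which was 0.17 (adjusted p = 0.89) with the run term. Evc2 was lower by 0.78 ± 0.23 in GFP-positive than in GFP-negative cells (adjusted p = 0.023), and by 0.52 (adjusted p = 0.086) without GFP-negative 1, by 0.80 (adjusted p = 0.059) without GFP-positive 1 and by 0.65 (adjusted p = 0.1) without GFP-positive 3. Centred on the median gene that difference was -0.28 (adjusted p = 0.29).

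Tulp3, an adaptor that brings G protein-coupled receptors such as Gpr161 into the cilium with IFT-A, was low in GFP-positive cells. It measured 7.43, 7.83 and 7.87 in Myc secondary tumours, 7.75, 8.35 and 7.82 in Myc primary tumours, 8.03, 7.96 and 8.53 in Shh tumours, 6.71, 6.66 and 6.76 in GFP-positive cells and 8.49, 8.08 and 7.53 in GFP-negative cells. No other array came within the GFP-positive range. Tulp3 was higher than in GFP-positive cells by 1.27 ± 0.25 in Myc primary tumours (adjusted p = 0.0021) and by 1.46 ± 0.25 in Shh tumours (adjusted p = 0.0031), and GFP-positive cells were lower than GFP-negative cells by 1.33 ± 0.25 (2.51-fold; adjusted p = 0.0014). Over the mean of its probe sets these were 0.49, 0.61 and -0.55, all called, and with the run term 0.51, 0.71 and -0.83, none called. GFP-negative 3, which shares its run with the GFP-positive arrays, was at 7.53 and above all 3 of them. It is among the arrays that stood apart from their groups, and the part of the run in these differences was not tested.

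Gpr161, a ciliary receptor that restrains Hedgehog signalling, measured 7.36, 6.38 and 7.10 in Myc secondary tumours, 7.73, 7.53 and 6.99 in Myc primary tumours, 7.65, 7.73 and 7.74 in Shh tumours, 8.32, 8.33 and 8.19 in GFP-positive cells and 8.24, 8.14 and 7.73 in GFP-negative cells. The Myc secondary arrays lay below the Shh arrays, and all tumour arrays lay below the GFP-positive arrays. It was lower by 0.76 ± 0.24 in Myc secondary than in Shh tumours (adjusted p = 0.04), a call that ended without any 1 of 8 arrays, the value falling to -0.47 (adjusted p = 0.16) without Myc secondary 2. In Myc primary tumours against GFP-positive cells it was lower by 0.86 ± 0.24 (adjusted p = 0.019), and by 0.65 (adjusted p = 0.083) without Myc primary 3. That call also ended without GFP-positive 1 or GFP-positive 2, at adjusted p = 0.06 and 0.059.

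Kif7, the kinesin that organises the ciliary tip and controls Gli proteins, measured 7.24, 7.45 and 7.20 in Myc secondary tumours, 7.19, 7.92 and 6.89 in Myc primary tumours, 6.53, 6.39 and 7.30 in Shh tumours, 6.62, 6.95 and 6.73 in GFP-positive cells and 7.65, 7.39 and 7.68 in GFP-negative cells. The tumour groups overlapped and were not called apart. GFP-positive cells were lower than GFP-negative cells by 0.81 ± 0.26 (adjusted p = 0.038), a call that ended without any 1 of the 6 sorted-cell arrays (adjusted p between 0.052 and 0.12) and on centred arrays (-0.31, adjusted p = 0.37). Arl3, the GTPase that releases lipid-anchored cargo in the cilium, was higher by 0.72 ± 0.20 in Myc secondary tumours, at 10.60 ± 0.30, than in Shh tumours, at 9.87 ± 0.23 (adjusted p = 0.018). Without Shh 1, Myc secondary 2 or Myc secondary 3 its adjusted p was 0.076, 0.074 and 0.064.

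Of the transcription factors, Rfx3 activates genes of cilia through the X-box. It measured 5.94, 7.20 and 7.41 in Myc secondary tumours, 6.88, 6.91 and 6.88 in Myc primary tumours, 7.05, 7.50 and 7.24 in Shh tumours, 8.35, 7.99 and 8.05 in GFP-positive cells and 7.73, 7.28 and 7.21 in GFP-negative cells. On the probe set used, GFP-positive arrays were above all others. Rfx3 was lower by 1.24 ± 0.30 in Myc primary tumours than in GFP-positive cells (2.37-fold; adjusted p = 0.0089), and by 0.65 (adjusted p = 0.023) over the mean of its probe sets. The difference between Shh tumours and GFP-positive cells was -0.87 ± 0.30 (adjusted p = 0.11). A second Rfx3 probe set was above background in Shh tumours only, at 5.05, against 4.52 in GFP-positive cells. On it Rfx3 was called lower than in Shh tumours in Myc primary (-0.59, adjusted p = 0.033) and Myc secondary tumours (-0.53, adjusted p = 0.037). Both have their lower side under background. Foxj1, which directs motile cilia, measured 3.96, 3.96 and 3.89 in Myc secondary tumours, 3.90, 3.85 and 4.24 in Myc primary tumours, 3.75, 3.86 and 4.06 in Shh tumours, 3.81, 3.96 and 3.74 in GFP-positive cells and 4.01, 4.96 and 4.12 in GFP-negative cells. Only GFP-negative 2 was above background, and on that array the summed choroid plexus markers were also highest, at 13.13 against 6.60 to 11.69 on the other 14. Whether they belong together was not tested.

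Genes of the same pathways outside the 47 gave the setting. Of 22 further transition zone and basal body genes, 6 fell and none rose in Myc secondary against Shh tumours, 3 fell and 1 rose in Myc primary against Shh tumours, and 7 rose and 1 fell in GFP-positive against GFP-negative cells. These are 27.3%, 18.2% and 36.4% of the 22, against 22.8%, 15.8% and 26.3% of all genes. Among genes above background the shares were 32.5%, 23% and 37.1%. The gene that rose in Myc primary tumours was at least 1.05-fold higher, as Shh tumours were under background for it. In Myc secondary against Shh tumours the smallest adjusted p were those of Cspp1 (-0.87, 0.0026), Ttbk2 (-0.88, 0.0036) and Invs (-1.74, 0.0044). Of 13 BBSome and ciliary GTPase genes, Ttc8 (-1.48, adjusted p = 0.0024) and Wdpcp (-1.60, adjusted p = 0.0011) fell in Myc secondary tumours, and Wdpcp fell in Myc primary tumours too (-1.73, adjusted p = 0.00094). Called shares were 15.4% and 7.69% of the 13, against 22.8% and 15.8% of all genes. Of 10 further transport and motor genes, Kifap3, the kinesin-2 accessory subunit, was lower by 0.90 (adjusted p = 0.026) and Wdr34, an intermediate chain of dynein 2, was higher by 1.08 (adjusted p = 0.031) in Myc secondary than in Shh tumours. They are 20% of the 10, against 22.8% of all genes.

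Of 10 Hedgehog signalling genes that act at the cilium, 6 fell in Myc secondary and 4 in Myc primary against Shh tumours, and none was called higher in either. That is 60% and 40% of the 10, against 22.8% and 15.8% of all genes called. Ptch1, the receptor gene and itself a target, measured 10.15, 9.65 and 9.55 in Myc secondary tumours, 9.17, 9.26 and 9.56 in Myc primary tumours and 9.9, 7.03 and 4.56 in Shh tumours. It was named after its values were seen, as it did not follow the direction of the called genes. Shh 1 lay within the Myc secondary range and Shh 3 under background, and the differences of 2.62 ± 0.89 (adjusted p = 0.052) and 2.17 ± 0.89 (adjusted p = 0.12) missed the threshold. Counting Ptch1, 2 of the 10 genes had a positive difference in Myc secondary and 4 in Myc primary against Shh tumours. Gli1, the target gene that reads out the pathway, averaged 4.10 ± 0.38 in Myc secondary tumours, 3.57 ± 0.10 in Myc primary tumours, both under background, and 9.34 ± 0.27 in Shh tumours (SD, n = 3 each). It was at 7.95 ± 0.27 in GFP-positive cells and 7.0 ± 0.57 in GFP-negative cells. Boc, a co-receptor, differed from Shh tumours by -3.84 (adjusted p = 9e-07) in Myc secondary and by -3.43 (adjusted p = 3.7e-06) in Myc primary tumours. The differences of Kif3c, Tctn1 and Evc given above lie beside these larger ones in the same arrays.

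Of 7 genes that promote cilium disassembly, 5 rose in GFP-positive against GFP-negative cells, with Nek2 (1.44 log2 units, adjusted p = 5.9e-05), Kif24 (at least 1.49-fold higher, as GFP-negative cells were under background; adjusted p = 9.5e-05) and the mitotic kinase Aurka (1.32, adjusted p = 0.0018) first. Several of these are also cell cycle genes, and 4 of 6 cell cycle markers rose in the same comparison. Of all genes 12.6% rose in it. Of 24 motile cilium genes, 18 had a group mean below background in Myc secondary tumours, 17 in Myc primary tumours, 16 in Shh tumours, 18 in GFP-positive cells and 15 in GFP-negative cells. In GFP-positive against GFP-negative cells 7 of them fell and 1 rose, which is 33.3% of the 24, against 26.3% of all genes. Most of the 7 were under background in all 5 groups. In Myc secondary against Shh tumours 5 of the 24 fell, first Tppp3 (-2.09, adjusted p = 0.00076) and Rsph9 (-1.90, adjusted p = 0.0014), and 1 rose. These are 25% of the 24, against 22.8% of all genes. Ccdc40, a ruler protein of motile axonemes, rose in both Myc groups against Shh tumours, at 6.29, 8.40 and 7.93 in Myc secondary tumours, 8.18, 8.06 and 7.06 in Myc primary tumours and 4.72, 4.61 and 5.11 in Shh tumours. Its differences were 2.73 (adjusted p = 0.00093) and 2.95 (adjusted p = 0.00082).

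For 20 of the 47 genes other probe sets gave a second reading. Of 31 such probe sets, 14 were below background in all 5 groups. The other 17 made 15 calls in 7 genes, of which 4 had the opposite sign to the probe set used. All 4 were of Kif3b, where one of the other probe sets averaged 6.94 ± 0.34 in Myc secondary tumours, 5.61 ± 0.54 in Myc primary tumours, 6.17 ± 0.08 in Shh tumours, 7.31 ± 0.18 in GFP-positive cells and 5.24 ± 0.16 in GFP-negative cells. On it Kif3b was called higher in Myc secondary than in Myc primary tumours by 1.33 (adjusted p = 0.017), against -0.31 on the probe set used. In Myc primary tumours against GFP-positive cells it was lower by 1.70 (adjusted p = 0.00023), against 0.07 on the probe set used. GFP-positive exceeded GFP-negative cells on it by 2.06 (adjusted p = 4e-05), the same sign as the uncalled 0.855 of the probe set used. A Tctn3 probe set that was below background in all groups had 2 further calls of opposite sign. For Tmem216, the call of -0.71 ± 0.13 in Myc primary tumours against GFP-positive cells (adjusted p = 0.0016) was -0.05 (adjusted p = 0.85) over the mean of its probe sets. For Bbs4 a second probe set gave -0.59 in Myc primary against Shh tumours and 1.45 in GFP-positive against GFP-negative cells, both called.

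**Figure D4:**
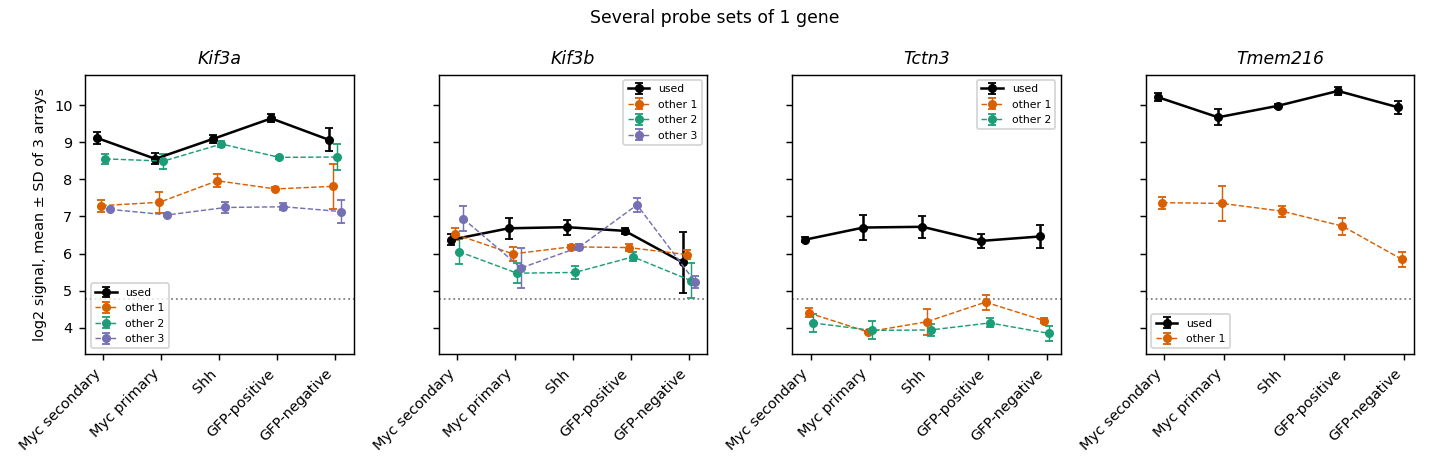
Group means ± SD (3 arrays each) of all probe sets of Kif3a, Kif3b, Tctn3 and Tmem216, with the probe set used as a solid line, others dashed and the background level dotted. Kif3b has one probe set that peaks in GFP-positive cells at 7.31 while the one used is nearly flat from the tumours to GFP-positive cells (6.37 to 6.71), and the Tmem216 probe sets run in opposite order between Myc primary tumours and GFP-positive cells.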

How the data were processed

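Values are the log2 signals that the authors deposited for 45141 probe sets, made with RMA (background correction, quantile normalization and summary of probes) in Partek 6.5 per the submitters' processing notes; further settings are not given in the sources used here. The deposited log2 values were used as given, between 2.66 and 14.10. Platform annotation named 1 gene for 28898 probe sets (28689 symbols updated through RefSeq, GRCm38.p6, and 209 kept), several for 551 and none for 15588, besides 104 controls. Each gene was read on its probe set with the highest mean, giving 17097 genes. One linear model over 5 groups (limma 3.58.1 in R 4.3.3, lmFit and eBayes, 10 residual degrees of freedom) gave moderated tests, with p-values adjusted by Benjamini-Hochberg over all genes. The script was tested on simulated data. Genes and lists were chosen with earlier results of these data known. Every gene of the 47 is counted. Values per array are given for the 21 with an adjusted p below 0.05, a log2 difference of at least 1 and no overlap in at least 1 comparison, or chosen regardless of their values (Ift88, Kif3a, Kif7, Gpr161, Rfx3, Foxj1). Other lists name up to 3 genes with the smallest adjusted p in a comparison. Alternatives were the mean of probe sets, adjustment over all probe sets, 2109 dim genes left out, arrays centred on their median gene, cyclic loess, only the compared arrays, an intensity trend with robust variance, the run of title numbers as a covariate, and arrays left out. Precision is limited by 3 arrays a group.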

Additional observations from a re-analysis of the deposited data

How the results depend on the processing

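Counts of called genes among the 47 changed by more than 1.5 times under these settings. For Myc secondary against Shh tumours (14), the run term gave 4, of which 2 were among the 14. For Myc primary against Shh tumours (6), cyclic loess and the fit without the 3 arrays that stood apart gave 10 each. For Myc secondary against Myc primary tumours (0), the run term gave 1. For Myc primary tumours against GFP-positive cells (12), the fit on only the compared arrays gave 20 and the run term 6. For Shh tumours against GFP-positive cells (6), these gave 14 and 1, and leaving out the 3 arrays gave 13. For GFP-positive against GFP-negative cells (14), centred arrays gave 32, cyclic loess 8 and the intensity trend 9. Leaving out 1 array at a time gave 11 to 16, 2 to 11, 0 to 1, 11 to 14, 2 to 9 and 5 to 17 in the same order, and 23 to 30 for a difference among any groups (28). The extremes of 2 and 11 for Myc primary against Shh tumours came without Myc primary 3 and without Myc secondary 1, the count was 3 without any 1 Shh array, the 2 for Shh tumours against GFP-positive cells without Shh 2 or any GFP-positive array, and the 5 for the sorted groups without GFP-positive 1, with 7 and 6 without GFP-positive 2 and 3. None of the 52 calls changed direction under any of the 24 alternatives. The cause of these changes was not tested. No paired analysis was possible because replicate numbers were given in accession order and pair no samples.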
